A study of Mus musculus with 13 samples.

Results

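Spon2, Arhgap20 and Tshr are 3 genes of resting mouse skin whose transcripts run high around lights on and low around lights off. They are 3 of 19938 genes that had a probe set of their own on the array, and each has 1 such probe set, which was used. They were chosen by their fitted 24 h curves on these same arrays, as genes with a large amplitude and a peak near lights on. Their amplitude and peak time are therefore given as a description, with no test.

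The data are 13 arrays of whole back skin from male C57Bl6 mice at postnatal day 46, whose hair follicles were in the resting phase, telogen. Lights were on for 12 h and off for 12 h of each day, and food was freely available. Skin was collected every 4 h, and each array holds RNA pooled from 3 mice. Zeitgeber time (ZT) counts hours from lights on, with lights off at ZT12. There were 3 arrays at ZT2 (hours 2, 26 and 50), and 2 arrays, 1 per day, at each of ZT6, ZT10, ZT14, ZT18 and ZT22. No group was treated or carried an allele of its own, and by their labels the groups differ in the hour of collection alone. Values are probe set intensities on a linear scale. The fits used log2(intensity + 16), a scale that shrinks the folds of dim genes.

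The circadian clock is a loop in which CLOCK and BMAL1, the product of Arntl, drive genes of their own repressors, so that activator and repressor transcripts peak at opposite times of day. The 3 genes are not parts of that loop and belong to unrelated protein families. Spon2 encodes spondin 2, also called mindin, a secreted matrix protein with a thrombospondin repeat that binds integrins and microbial surface molecules. Arhgap20 encodes a GTPase-activating protein that is itself stimulated by the GTPase RAP1. Tshr encodes the thyrotropin receptor, which signals through Gs and cAMP, drives hormone synthesis in the thyroid, and is also known from fat cells and skin fibroblasts.

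The stretch before the start of a gene is shown because such stretches can hold sites for clock factors. Of the 3 genes, Arhgap20 had an entry among the RefSeq promoter windows. Its 250 bases before the start lie at chr9:51765101-51765350 on the plus strand (GRCm38.p6), and capitals mark GGGCGG, the GC box bound by SP1-type factors, on either strand.
Arhgap20: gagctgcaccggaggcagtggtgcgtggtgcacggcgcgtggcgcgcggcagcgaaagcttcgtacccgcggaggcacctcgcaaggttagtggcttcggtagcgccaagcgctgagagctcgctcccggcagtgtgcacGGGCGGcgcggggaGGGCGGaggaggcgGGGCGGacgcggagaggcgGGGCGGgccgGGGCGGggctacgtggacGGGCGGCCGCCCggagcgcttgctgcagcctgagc

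The Arhgap20 window is 76% G and C, above 96.7% of 32851 windows of the same length, whose median is 52.4%. It holds 37 CG pairs and 7 GC boxes, 2 of which stand back to back on opposite strands. A GC box occurs in 32.7% of all windows. The letters of the E-box (CACGTG, in 6.02% of windows), the D-box (TTATGTAA or TTACGTAA, 0.931%), the REV-ERB and ROR motif (TAGGTCA or TGGGTCA, 5.38%) and the cAMP response element (TGACGTCA, 1.55%) do not occur in it on either strand. These letter searches describe this window and say nothing about which factors bind.

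Spon2 had the widest swing of the 3 genes. In order of collection from hour 2 to hour 22 its intensity was 1062, 817, 398, 346, 1489 and 1448. From hour 26 to hour 50 it was 1890.3, 950.5, 428, 359, 947, 1633 and 1539.9. The 4 arrays of ZT10 and ZT14 were the lowest of the 13, and the 5 arrays of ZT22 and ZT2 lay above all 4 of them without overlap. The lowest of the ZT22 and ZT2 arrays was 2.48 times the highest of the ZT10 and ZT14 arrays. The fitted peak-to-trough difference was 2.21 ± 0.24 in log2 (SE, n = 13 arrays), a fold of 4.64, with the peak at 23.6 ± 0.42 h after lights on (SE).

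Arhgap20 followed with a shallower curve. Its intensity was 922, 724, 319, 461, 929.96 and 1155 from hour 2 to hour 22, and 1105, 688, 359, 381, 840.4, 803 and 1228 from hour 26 to hour 50. Here ZT10 was the lowest time of day on both days, and the ZT14 arrays already lay above both ZT10 arrays. The ZT22 and ZT2 arrays ranged from 803 to 1228, against 319 to 461 on the ZT10 and ZT14 arrays, with no overlap. The fitted difference was 1.64 ± 0.18 in log2 (SE, n = 13 arrays), a fold of 3.12, with the peak at 23.4 ± 0.44 h (SE).

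Tshr had the smallest swing of the 3. Its intensity was 687, 545, 372, 356, 936 and 917 from hour 2 to hour 22, and 780.3, 651, 383, 253, 495, 957 and 803 from hour 26 to hour 50. Both ZT22 arrays were high, at 917 and 957, while the ZT18 arrays lay far apart, at 936 and 495. The ZT22 and ZT2 arrays ranged from 687 to 957, against 253 to 383 on the ZT10 and ZT14 arrays, again with no overlap. The fitted difference was 1.44 ± 0.22 in log2 (SE, n = 13 arrays), a fold of 2.71, with the peak at 23.6 ± 0.58 h (SE).

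**Figure D1:**
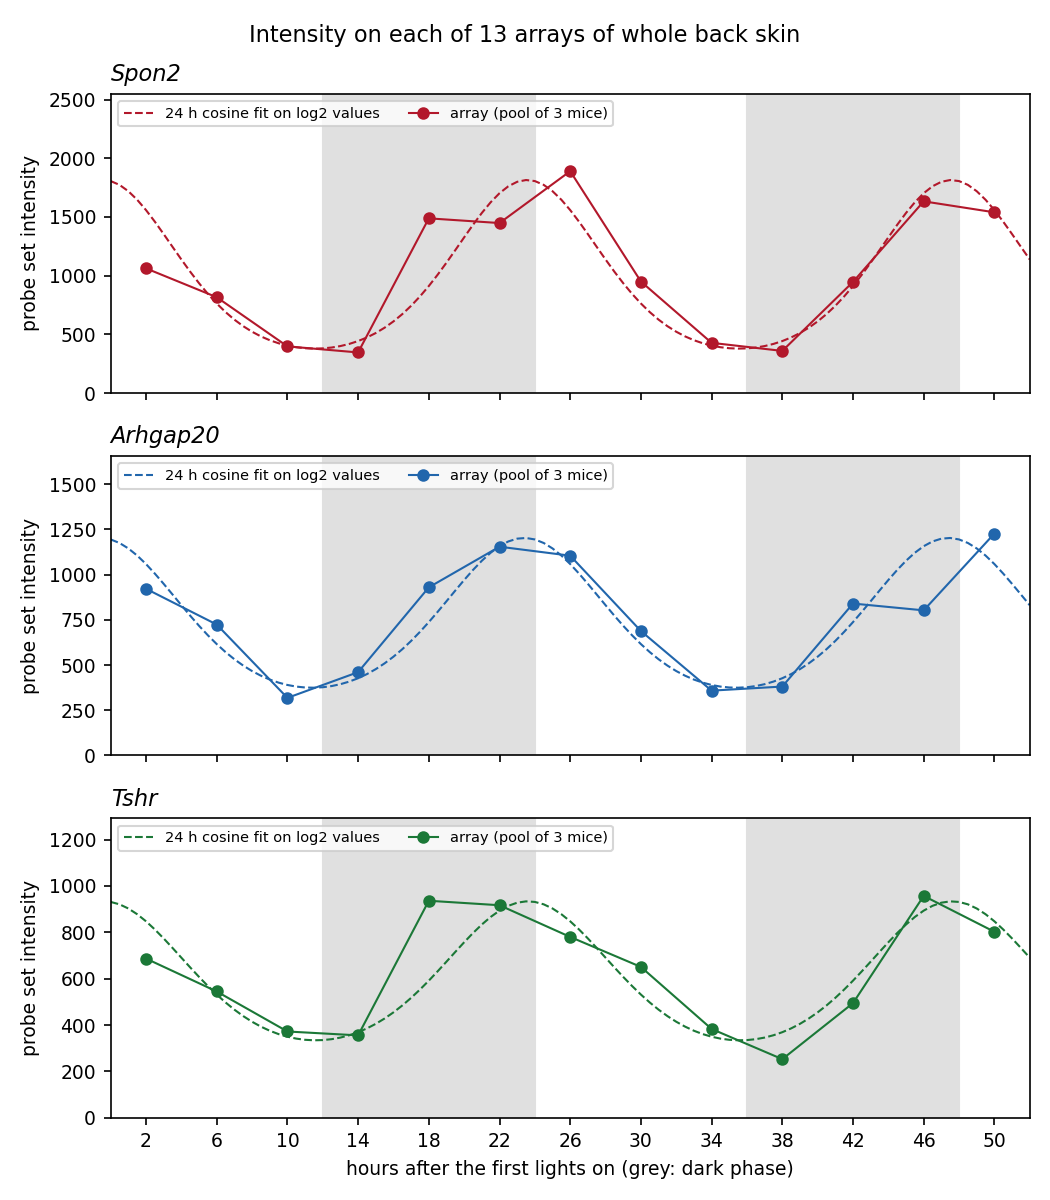
Probe set intensity (linear) of Spon2, Arhgap20 and Tshr against the hour of collection on 13 arrays, with dark phases in grey. Points are arrays of pooled RNA of 3 mice and the dashed line is the 24 h cosine curve; all 3 genes are lowest at ZT10 or ZT14 on both days, and the first ZT18 array (hour 18) of Spon2 and Tshr lies far above the curve.

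A single 24 h wave held 86.7% of the variance of Spon2 over the arrays, 86.3% of that of Arhgap20 and 77.7% of that of Tshr. The spread between arrays of the same time of day was 0.29, 0.20 and 0.29 in log2 for these genes in the same order (pooled SD). The background of the choice is that 318 of 14953 tested genes (2.13%) passed the 24 h test, which is limma's F test with a Benjamini-Hochberg adjusted p of 0.05. Leaving out 1 array moved this count by more than 1.5 times for 8 of the 13 arrays. It was 193 without the ZT6 array of day 1 and 183 without that of day 2, 133 and 202 likewise for ZT10, 128 and 131 for ZT14, 195 without the ZT2 array of day 2 and 203 without that of hour 50. It was highest, at 422, without the ZT2 array of day 1. Of the 318 genes, 143 (0.956% of those tested) had a fitted peak between 20 h and 4 h. In this last group Spon2 ranked 1 in fold, just above Arntl at 4.61. Arhgap20 ranked 6, between Adamts4 at 3.14 and Nfil3 at 2.82, and Tshr ranked 8, just above Klb at 2.57. Nothing is read from these ranks, since the fold chose the genes.

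The fitted peaks of the 3 genes lay within 0.2 h of each other, less than the SE of any of them. They came after the peak of Arntl at 22.2 h, by 1.36 h for Spon2, 1.204 h for Arhgap20 and 1.40 h for Tshr. They fell 10.3 to 10.5 h before that of Dbp, a direct output of the clock, and 10.4 to 10.5 h after that of Per2, a repressor. Nr1d1, which encodes the Arntl repressor REV-ERB alpha, peaked 7.94 to 8.13 h after them. The correlation with Arntl over the 13 arrays was 0.86 for Spon2, 0.92 for Arhgap20 and 0.81 for Tshr, and with Per2 it was -0.86, -0.86 and -0.78. With Dbp it was -0.85, -0.85 and -0.82, and with Nr1d1 it was weaker, at -0.40, -0.42 and -0.39. These are descriptions, and all values come from the same arrays.

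The levels of all 3 genes were low early in the dark phase and high late in it. The largest step between the means of successive times of day lay between ZT14 and ZT18 for each of them. The arrays of these times did not overlap. For Arhgap20 the fall from ZT6 to ZT10 was nearly as large, at -1.028 against 1.048 in log2, also without overlap. Its fall was the larger step on day 1 (9.53 to 8.39, against a rise from 8.90 to 9.89). Its rise was the larger on day 2 (8.63 to 9.74, against a fall from 9.46 to 8.55). For Spon2 and Tshr the mean fall was smaller than the rise, at -1.065 against 1.707 and -0.635 against 1.141. The mean intensity of Spon2 was 3.45 times as high at ZT18 as at ZT14, that of Arhgap20 2.10 times and that of Tshr 2.35 times. This rise was present on both days, at 2.64 times on day 2 and 4.30 times on day 1 for Spon2, 2.20 and 2.02 times for Arhgap20, and 1.96 and 2.63 times for Tshr. From ZT18 through ZT22 to ZT2 the steps were smaller, at most 0.45 in log2.

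The order of the mean levels by time of day was ZT22, ZT2, ZT18, ZT6, ZT10 and ZT14 from high to low for Spon2 and for Tshr. For Spon2 the arrays overlapped between ZT22 and ZT2, between ZT2 and ZT18 and between ZT18 and ZT6, so those neighbours were not separated by their spread. For Tshr they overlapped between ZT2 and ZT18 and between ZT18 and ZT6, and the ZT22 arrays lay above all ZT2 arrays. The ZT22 arrays of Tshr still overlapped with those of ZT18, which reached 936 against a lowest ZT22 array of 917. For Arhgap20 the order was ZT2, ZT22, ZT18, ZT6, ZT14 and ZT10, with overlap between ZT2 and ZT22 and between ZT22 and ZT18. Thus Arhgap20 had its lowest mean at ZT10, 339 ± 28.3 (SD, n = 2). Spon2 had its lowest at ZT14, 353 ± 9.18 (SD, n = 2), and Tshr also at ZT14, 304 ± 72.6 (SD, n = 2). The highest means were 1541 ± 131 (SD, n = 2) at ZT22 for Spon2, 1085 ± 154 (SD, n = 3) at ZT2 for Arhgap20 and 937 ± 28.5 (SD, n = 2) at ZT22 for Tshr.

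**Figure D2:**
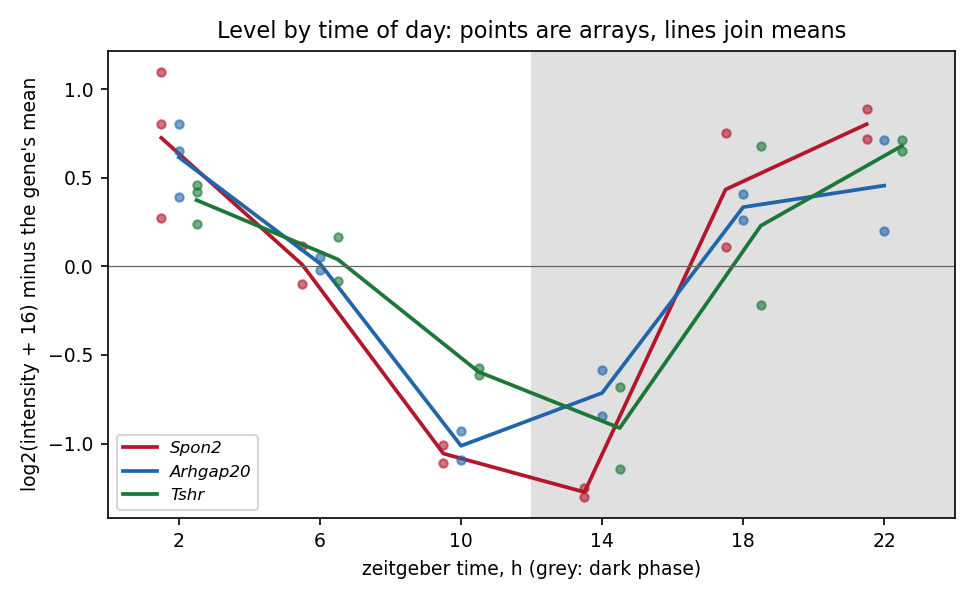
Log2(intensity + 16) minus the mean of the gene over 13 arrays, against zeitgeber time in hours, for Spon2, Arhgap20 and Tshr (points are arrays, set slightly apart, and lines join the means of a time of day). All 3 lines climb most between ZT14 and ZT18 and are lowest at ZT10 (Arhgap20) or ZT14 (Spon2 and Tshr).

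Whether the curves depart from a single 24 h wave was tested as a 12 h component, a contrast that the choice of the genes did not use. Peak to trough, the 12 h component measured 0.57 ± 0.20 in log2 for Spon2, 0.52 ± 0.14 for Arhgap20 and 0.48 ± 0.18 for Tshr (SE, n = 13 arrays). None of the 3 passed limma's F test, each with a Benjamini-Hochberg adjusted p of 0.863, and the unadjusted p-values were 0.0468, 0.0101 and 0.0615. No gene passed, 0 of 14953 (0%), and 817 genes (5.46%) had an unadjusted p under 0.05. Without the first ZT10 array 191 genes passed, of which none was one of the 3, whose adjusted p-values ranged from 0.213 to 0.999 over the alternatives.

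The next question was whether the curves repeat on the second day. Fitted to each day alone (6 arrays each), Spon2 had a fold of 5.47 on day 2 and 4.19 on day 1, Arhgap20 one of 2.86 on day 2 and 3.22 on day 1, and Tshr one of 3.21 on day 2 and 2.65 on day 1. The fitted peak was later on day 2 in all 3, by 1.47 h for Spon2, 1.02 h for Arhgap20 and 2.56 h for Tshr. These shifts were given no SE and were not set against those of other genes. The difference between days in the 24 h pattern did not pass for any of them. Its adjusted p was 0.5004 for Spon2, 0.737 for Arhgap20 and 0.389 for Tshr (limma's F test on the interaction of day with the 24 h wave, 12 arrays). The unadjusted p-values of the same F test were 0.235, 0.558 and 0.0741. Over all genes 0 of 14953 (0%) passed and 1919 (12.8%) had an unadjusted p under 0.05.

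The level averaged over the day was compared next. The second day minus the first, paired by time of day, was 0.12 ± 0.15 in log2 for Spon2, -0.10 ± 0.10 for Arhgap20 and -0.14 ± 0.15 for Tshr (SE, 6 pairs). The adjusted p-values were 0.708, 0.667 and 0.668 (limma), and 0 of 14953 genes (0%) passed, with 976 (6.53%) at an unadjusted p under 0.05. Single times of day moved more than the average. At ZT18 the second day was lower in all 3 genes, at 0.64 times the first for Spon2, 0.90 times for Arhgap20 and 0.53 times for Tshr. At ZT2 the second day was higher in all 3, at 1.78 times for Spon2, 1.199 times for Arhgap20 and 1.14 times for Tshr. At ZT22 the second day was lower for Arhgap20, at 0.70 times, while Spon2 and Tshr were at 1.13 and 1.04 times. With 1 array per time and day these single differences have no error of their own.

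**Figure D3:**
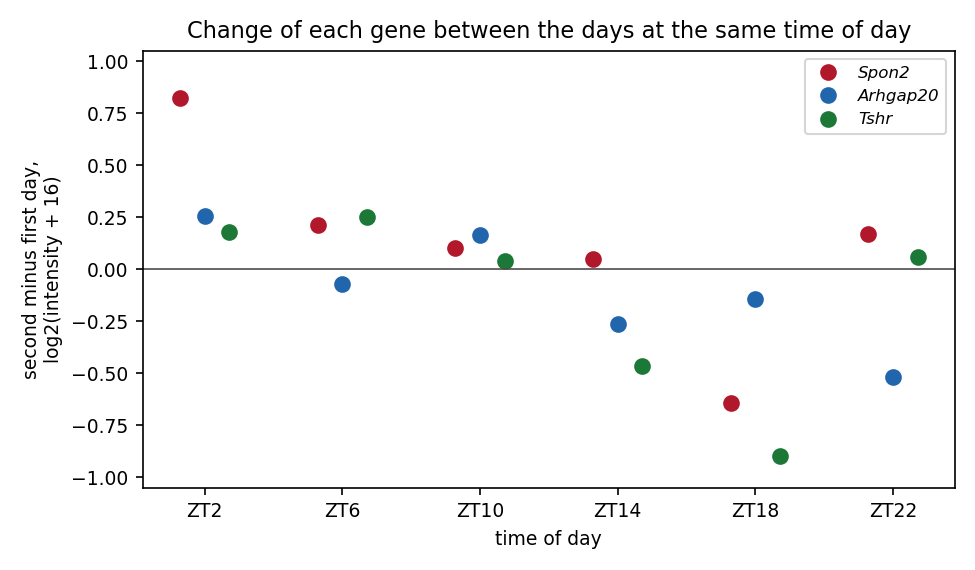
Second day minus first day in log2(intensity + 16) at each time of day for Spon2, Arhgap20 and Tshr, 1 array per day and time. The 3 genes lie below 0 at ZT18 and above 0 at ZT2, and at ZT22 Arhgap20 lies apart from the other two.

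The arrays around the 24 h curve were then compared between the genes. Over the 13 arrays Spon2 and Tshr correlated at 0.95, Spon2 and Arhgap20 at 0.93, and Arhgap20 and Tshr at 0.87, which the shared curve used for the choice largely sets. After the 24 h curve of each gene was taken out, the correlation was 0.75 for Spon2 and Tshr, 0.50 for Spon2 and Arhgap20 and 0.29 for Arhgap20 and Tshr (n = 13 arrays). Seen from Tshr, Spon2 then ranked 57 among 14952 other genes, and seen from Spon2, Tshr ranked 303. Arhgap20 ranked 2719 from Spon2 and 3798 from Tshr. The first ZT18 array lay above the curve in all 3 genes, by 0.70 in log2 for Spon2, 0.33 for Arhgap20 and 0.65 for Tshr. The second ZT22 array lay at -0.52 for Arhgap20, -0.06 for Spon2 and 0.10 for Tshr. The curve taken out is a single wave, so a daily shape other than that wave stays in these values. Both ZT6 arrays lay above the curve in all 3 genes, and both ZT14 arrays lay below it in Spon2 and Tshr. Both ZT22 arrays lay below it in Spon2 and above it in Tshr. Genes of 1 array also share its RNA pool. These correlations describe the arrays, and their source was not tested.

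Genes outside the 3 whose values over the 13 arrays were most like those of each of them were named by the highest Pearson correlation of log2 values, with the 3 themselves left out. Counted in, Spon2 would stand at rank 1 from Tshr and at rank 6 from Arhgap20, and Tshr at rank 4 from Spon2. For Spon2 they were Adamts4, a matrix protease, at 0.97, Ckb, brain-type creatine kinase, at 0.95, Eef1akmt3, a lysine methyltransferase, at 0.95, Cdca3, a gene of mitotic entry, at 0.95, and Cxcl14, a chemokine of epithelia, at 0.94. For Arhgap20 they were Ckb at 0.97, Lpar4, a receptor for lysophosphatidic acid, at 0.95, Tubb2a, a tubulin, at 0.94, Tspyl4 at 0.93 and Rtl3 at 0.93. For Tshr they were Anln at 0.93, Cdc20 at 0.93 and Aspm at 0.93, which encode proteins of cell division, Prr13 at 0.93, and Has2, a hyaluronan synthase, at 0.93. All of these genes had a fitted peak between 22.6 h (Cxcl14) and 0.74 h (Cdc20), and their folds ran from 1.32 for Prr13 to 3.14 for Adamts4. Their choice by correlation with the 3 genes largely sets these peak times. Over the 13 arrays, correlations over 0.9 were held by 31 genes for Spon2, 15 for Arhgap20 and 18 for Tshr, the other members counted in, so the order among the top genes is not firm.

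Genes around the 3 were taken from 7 lists of relatives, partners and pathway genes, 161 genes in all, of which 133 were tested. Of these, 2 passed the 24 h test (1.504%), against 2.13% of all genes, and the median fold was 1.14 in the lists and 1.14 over all genes tested. The lists thus held calls at about the background share. An unadjusted 24 h p under 0.05 (limma) was held by 27 of the 133, against 2775 of all 14953 tested genes (18.6%), and the counts of unadjusted p given for single lists are to be read against that share. With the collection day as a replicate block 1 of them passed. The count was 5 without the ZT2 array of day 1, 0 without the ZT10 array of day 1, and 1 without the ZT10 array of day 2, either ZT6 or ZT14 array, the ZT18 array of day 2 or the ZT2 array of hour 50.

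Among the spondin and thrombospondin repeat proteins, the relatives of Spon2, 1 of 11 tested genes passed, 5 had an unadjusted p under 0.05 (limma) and the median fold was 1.25. It was Thsd4, a fibrillin-binding matrix protein, which ran opposite to Spon2, peaking at 10.6 h, 1.30-fold (log2 0.38 ± 0.06, SE, n = 13 arrays, adjusted p = 0.0176 in limma's F test). Its intensity ranged from 374 to 409 on the ZT22 and ZT2 arrays and from 449 to 521 on the ZT10 and ZT14 arrays, with no overlap. Its adjusted p was 0.0737 without the first and 0.0614 without the second ZT10 array, and 0.3 with the adipocyte markers as a covariate. With that covariate its difference was 0.38 ± 0.10 (log2, SE). Of the 5 tested integrin genes whose products bind spondin 2, none passed and none had an unadjusted p under 0.05 (limma). Their median fold was 1.07, and the smallest p-values were those of Itgb1, Itgam and Itga4 with folds of 1.101, 1.16 and 1.06.

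Among the GTPase-activating proteins of the family of Arhgap20, 1 of 44 tested genes passed (2.27%), 7 had an unadjusted p under 0.05 (limma) and the median fold was 1.14. It was Arhgap28, peaking at 1.49 h, 1.37-fold (log2 0.46 ± 0.08, SE, n = 13 arrays, adjusted p = 0.0306 in limma's F test). Its intensity ranged from 288 to 361 on the ZT22 and ZT2 arrays and from 235 to 282 on the ZT10 and ZT14 arrays. With the collection day as a replicate block its adjusted p was 0.0767. It also lost the call without either ZT6 or ZT14 array, the first ZT10, the second ZT18, the second ZT2 or the last ZT2 array, with adjusted p-values from 0.0515 to 0.117, and with the olfactory receptor or the adipocyte covariate (0.162 and 0.339).

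The hormone side of Tshr was largely dim on these arrays. Of 12 measured glycoprotein hormones and related receptors, 4 were above the filter that left out the dimmest 25% of genes. Tshb and Cga, the subunits of thyrotropin, and Gphb5, the beta subunit of thyrostimulin, were below it. Gpha2, the alpha subunit of thyrostimulin, was tested and had a fold of 1.33 (adjusted p = 0.218). Lgr5 and Lgr6, R-spondin receptors of follicle stem cells, had folds of 1.27 and 1.23, and none of the 4 passed (limma, 3 at an unadjusted p under 0.05). Of 30 tested genes of Gs and cAMP signalling none passed and 5 had an unadjusted p under 0.05. Those with the smallest p were the phosphodiesterase gene Pde7b with a fold of 1.46, the receptor kinase gene Grk5 with 1.26 and the phosphodiesterase gene Pde3a with 1.39. Of 13 tested genes of thyroid hormone handling none passed and 3 had an unadjusted p under 0.05 (limma). Rxrg, a partner of thyroid hormone receptors, peaked at 1.92 h in the fit, 1.51-fold. Thrsp, a lipogenic gene that responds to thyroid hormone, did so at 17.9 h, 2.61-fold (log2 1.38 ± 0.32, SE). Their adjusted p-values were 0.0820 and 0.0826. Thra, a thyroid hormone receptor gene, had a fold of 1.27.

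**Figure D4:**
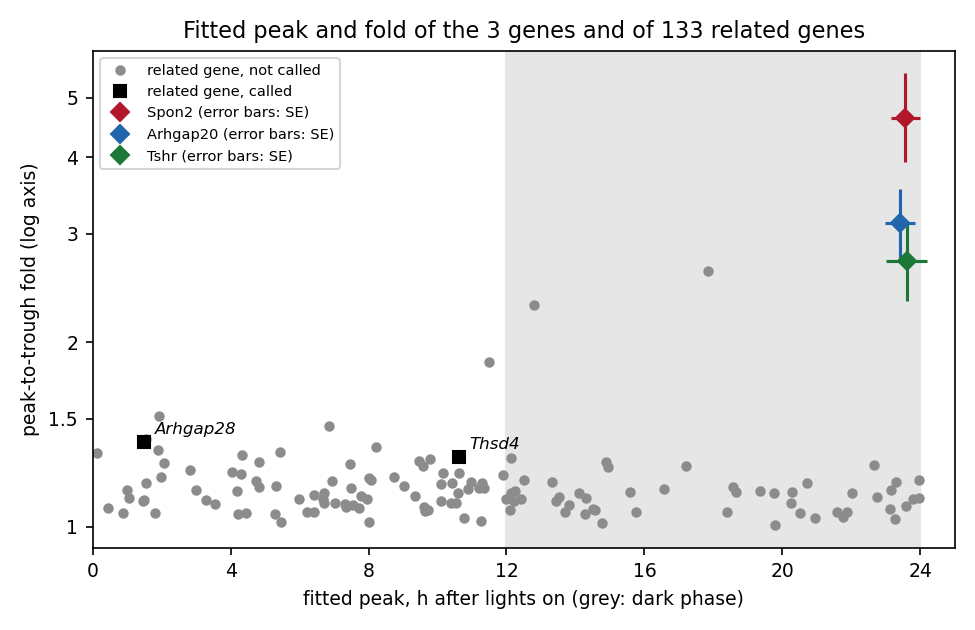
Fitted peak time in hours after lights on (x axis) and peak-to-trough fold (log y axis) of Spon2, Arhgap20 and Tshr with SE, and of 133 related genes. The 3 genes, chosen for a large fold and a peak near lights on, sit at 23.4 to 23.6 h above all related genes. The highest related gene, Thrsp, has a fold of 2.61, close to Tshr at 2.71. The 2 related genes that passed, Thsd4 and Arhgap28, have folds of 1.30 and 1.37.

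Arhgap20 has an antisense neighbour, Arhgap20os, with a probe set of its own, looked at after the annotation was seen. Its intensity ranged from 72.3 to 116 over the 13 arrays, below the filter, and its fitted fold was 1.202, highest at 16.3 h, and it was not tested.

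Whole skin mixes many cell types, and in such tissue fewer cells of a type and less RNA per cell cannot be told apart. The summed intensity of 9 measured adipocyte markers ran opposite to the 3 genes. It was 26889 to 33186 on the ZT22 and ZT2 arrays, against 33408 to 38803 on the ZT10 and ZT14 arrays, without overlap. How many of all genes lacked such an overlap was not counted. Of the 9 genes 2 (Cidec and Plin4) passed the 24 h test, against 318 of all 14953 tested genes (2.13%). The correlation of the adipocyte sum over the arrays was -0.69 with Spon2, -0.75 with Arhgap20 and -0.58 with Tshr. With this sum as a covariate, chosen after the data were seen, the peak-to-trough difference was 2.465 ± 0.39 for Spon2, 1.597 ± 0.31 for Arhgap20 and 1.842 ± 0.33 for Tshr (log2, SE), and the genes passing the 24 h test numbered 21. The sum itself varied with the time of day, so as a covariate it overlaps with the 24 h wave. The SE were larger than without it (0.24, 0.18 and 0.22), and why the count fell from 318 was not tested. The sums of the markers of dermal fibroblasts, endothelium, keratinocytes, macrophages, nerve, pericytes and smooth muscle, and skeletal muscle overlapped between the ZT22 and ZT2 arrays and the ZT10 and ZT14 arrays. None of their genes passed the 24 h test (limma), which 2.13% of all tested genes passed. For endothelium the overlap came from the second ZT22 array alone, at 7489. The other ZT22 and ZT2 arrays ranged from 8773 to 9929, against 7600 to 8486 on the ZT10 and ZT14 arrays. Correlations of these sums with the 3 genes ranged from -0.57 (nerve with Arhgap20) to 0.56 (keratinocytes with Tshr). Fibroblast markers ranged from 59200 to 83243 on the ZT22 and ZT2 arrays and from 74438 to 82157 on the ZT10 and ZT14 arrays, and keratinocyte markers from 66391 to 69289.5 on the ZT22 and ZT2 arrays and from 64470.1 to 67495 on the ZT10 and ZT14 arrays. Among thyroid follicle markers, Tg, which encodes thyroglobulin, and Slc26a4 were below the filter, while Foxe1, Nkx2-1, Pax8, Slc5a5 and Duox2 were above it, and the sum of the 7 measured ranged from 2031 to 3055 on the ZT22 and ZT2 arrays and from 2479 to 2923 on the ZT10 and ZT14 arrays.

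The array medians lay between 353.8 and 392.8, and 2 arrays stood somewhat apart. The second ZT22 array had a summed intensity of 44 hair keratin associated protein genes of 204782, 8.50 times the median array, and the lowest mean correlation with the other arrays, 0.939. The first ZT2 array had the next lowest, 0.953, and held the lowest sum of adipocyte, fibroblast, macrophage, thyroid and hair shaft markers. It was also the lowest of the 3 ZT2 arrays for each of the 3 genes. Without both arrays the peak-to-trough difference was 2.42 ± 0.24 for Spon2, 1.92 ± 0.14 for Arhgap20 and 1.501 ± 0.24 for Tshr (log2, SE, n = 11 arrays), with peaks at 23.7, 23.3 and 23.8 h. Without the first ZT18 array alone, the peak was at 0.10 h for Spon2, 23.8 h for Arhgap20 and 0.37 h for Tshr.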

How the data were processed

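Whole back skin RNA was measured on Affymetrix whole-transcript arrays, 1 array per pool of 3 mice. The table deposited by the authors holds intensities of probe sets on a linear scale. The submitters' processing notes name Affymetrix Expression Console 1.1.1 and PLIER 2.0. How arrays were normalized and the genome build are not given in the sources used, so no array coordinates are printed. The platform annotation gave 1 gene for 21789 of 35557 probe sets, and the brightest per gene gave 19938 genes. Symbols were updated through the mouse reference gene table (21698 probe sets matched). Intensities were transformed to log2(intensity + 16), the dimmest 25% of genes were left out, and 14953 genes were tested.

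Fits were made across all genes with lmFit and eBayes of limma 3.58.1 (R 4.3.3), with Benjamini-Hochberg adjustment and a threshold of 0.05. They were the 24 h cosine and sine (13 arrays), its interaction with day and the second minus the first day (12 arrays of hours 2 to 46), and a 12 h pair beside the 24 h pair. Peak-to-trough differences and peak times have delta-method SE. The tests were tested on simulated data. Replicates are pools collected at 1 time of day on different days, so p-values rest on the spread between pools. In the fits of 24 h and 12 h waves the residual also holds departures of the time-of-day means from those waves. The replicate number is the collection day, which the labelled hours give. The deviations of arrays of the same day from their time-of-day means correlated at -0.66 to 0.56 over genes (median 0.00034, 30 pairs with 20 distinct values, since with 2 arrays per time the deviations of both days are mirror images).

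The 3 genes and the lists were chosen with earlier results of these data known. The text names the 3 genes, called list members or otherwise the 3 with the smallest p, the 5 genes most correlated with each of the 3 (the 3 themselves left out), and the clock genes Arntl, Nr1d1, Dbp and Per2. Adamts4, Nfil3 and Klb, named as neighbours in fold, and Arhgap20os were chosen after their values were seen. Alternatives covered the offset, the filter, the normalization, covariates for dim-end, hair shaft and adipocyte transcripts, the replicate block and each array left out. Each of the 3 genes had 1 probe set, so the alternative of another probe set could not be run. The separate result of 1 of the 7 lists is not reported here.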

Additional observations from a re-analysis of the deposited data

How the results depend on the processing

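The peak-to-trough differences of Spon2, Arhgap20 and Tshr stayed between 2.08 and 2.47, 1.52 (1.527 with 1 array left out) and 1.92, and 1.27 and 1.84 in log2 over 24 alternatives. They moved by more than the spread between arrays of the same time of day for Arhgap20 at 1.92, without the first ZT2 and the second ZT22 arrays, and for Tshr at 1.84, with the adipocyte markers as a covariate. Both alternatives were added after the data were seen, and the cause was not tested. Peak times ranged from 23.4 to 0.10 h, 23.2 to 23.8 h and 23.2 to 0.37 h. The number of genes passing the 24 h test was 162 with the olfactory and vomeronasal receptor mean, 484 with the Krtap mean and 21 with the adipocyte markers as a covariate, 212 with the replicate block, and 128 to 422 with 1 array left out and 430 without the first ZT2 and the second ZT22 arrays. Calls in the related lists, 2 in all, were 0 with the dimmest 50% of genes left out and with the adipocyte covariate, 1 with the receptor covariate and with the replicate block, 3 with the Krtap covariate, 7 without the first ZT2 and the second ZT22 arrays and 0 to 5 with 1 array left out. Genes with a 12 h component numbered 1 with the Krtap mean as a covariate, and 0 to 191 with 1 array left out, the highest without the first ZT10 array. The second day minus the first was -0.021 for Spon2 without either of the first 2 ZT2 arrays and -0.069 without the first ZT2 and the second ZT22 arrays, with a range up to 0.272, and 0.013 for Tshr without either ZT18 array, with a range down to -0.269. Thsd4 lost its call in 3 of 23 alternatives. With the collection day as a replicate block, Arhgap28 lost its call and Thsd4 kept its own (adjusted p = 0.0325 in limma's F test). The calls of other named genes were not followed over the alternatives. The number of arrays, mostly 2 per time of day, limits the precision.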
